A study of Mus musculus with 8 samples.

Results

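The genes described are 29 out of 53801 counted. They were grouped as identity genes of the glia of the gut's nervous system and the Schwann cells of peripheral nerve. That name is the list's, and the counts do not show which cells made the RNA of each gene. Some members, such as Matn2 and Pmp22, were about as high in YFP+ as in YFP-. They are transcription factors, cytoskeletal and lipid-binding proteins, myelin proteins, secreted and surface proteins and signalling scaffolds. The list was chosen on earlier results of the same comparison that is described here, YFP+ against YFP-, so the differences of its members are given as a description and carry no test.

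RNA was sequenced from mouse small-intestinal stromal cells negative for CD45, which marks blood cells, and for CD31, which marks endothelium. The mice were LTβR-YFP mice, whose reporter is named after the lymphotoxin beta receptor, and all 8 libraries come from that line. Cells were sorted into a YFP+ and a YFP- fraction, with 4 libraries each. The labels give no age, no treatment and no other allele, and do not say what drives YFP or whether each library came from its own animal. The p-values below therefore reflect how far these samples scattered, and that scatter may be technical. The labels contradict each other, since every one of the 8 titles carries the YFP sign opposite to that in the sample's description and genotype. The fractions below follow description and genotype, and every direction would turn over under the titles.

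Libraries held 23272858 to 28688906 counts in YFP- and 23404630 to 29829232 in YFP+. Transcripts of fibroblasts were abundant in both fractions, with Pdgfra at 1014, 1097, 1007 and 1101 CPM in YFP- and 1006, 1183, 877 and 1076 CPM in YFP+ (CPM, counts scaled to the library total, with replicates 1 to 4 in order). Summed, 7 fibroblast markers were lower in YFP+ without overlap, at 36687 to 40641 CPM against 41453 to 48763 CPM in YFP-. Col3a1 and Col1a1 were the most abundant of the 7, so the sum follows them most. Taken singly, the log2 fold changes of the 7 ran from -0.43 to 0.26, and 2 were called lower. Of 16354 genes tested with edgeR at an adjusted p of 0.05, 3.34% were lower and 0.917% were higher in YFP+. With the replicate number as a block, these shares were 7.85% and 3.65%. All 4 YFP+ libraries lay below all 4 YFP- libraries in 5.86% of the genes. Without YFP+ replicate 3, 339 genes were lower and 88 higher, against 547 and 150 with all libraries, and without YFP- replicate 3 96 were higher. The median log2 fold change of all genes tested was 0.0032.

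Enteric glia surround the neurons of the gut wall and also lie in the mucosa, while Schwann cells ensheath peripheral axons. Both descend from the neural crest. Sox10 and Foxd3 are among the factors that specify and maintain these lineages, and Sox10 acts on myelin genes in Schwann cells. S100b and Gfap are usual markers of enteric glia, most of which make no myelin.

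The start regions of 3 members are shown as examples of genes that differed to unequal degrees between the fractions. Foxd3 was nearly absent from YFP+, Astn1 had the highest relative YFP+ level of the 10 members that kept under 10% of their level, and Plce1 had an intermediate one. The sequences are RefSeq's on GRCm38.p6, from 250 bases before to 50 after an annotated transcript start. Capitals mark ACAAAG, which with ACAATG was searched on both strands as a motif of the SOX type. The windows are Foxd3 at chr4:99656049-99656348, Astn1 at chr1:158362054-158362353 and Plce1 at chr19:38523947-38524246, all on the plus strand. The Plce1 window is at an internal start, since the annotated span of the gene begins at 38481109. Which start was used in these cells was not tested.

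Foxd3: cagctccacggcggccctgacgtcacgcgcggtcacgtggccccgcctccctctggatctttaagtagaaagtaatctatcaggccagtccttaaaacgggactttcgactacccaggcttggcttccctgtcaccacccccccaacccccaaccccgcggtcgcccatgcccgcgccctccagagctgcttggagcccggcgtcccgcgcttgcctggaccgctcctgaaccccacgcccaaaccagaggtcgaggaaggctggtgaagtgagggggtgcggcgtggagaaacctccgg

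Astn1: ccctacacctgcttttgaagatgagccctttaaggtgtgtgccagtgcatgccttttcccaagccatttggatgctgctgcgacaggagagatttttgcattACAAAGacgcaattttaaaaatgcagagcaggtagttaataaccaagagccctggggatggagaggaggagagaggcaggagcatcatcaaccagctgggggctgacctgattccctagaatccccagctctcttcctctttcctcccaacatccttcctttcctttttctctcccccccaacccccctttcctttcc

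Plce1: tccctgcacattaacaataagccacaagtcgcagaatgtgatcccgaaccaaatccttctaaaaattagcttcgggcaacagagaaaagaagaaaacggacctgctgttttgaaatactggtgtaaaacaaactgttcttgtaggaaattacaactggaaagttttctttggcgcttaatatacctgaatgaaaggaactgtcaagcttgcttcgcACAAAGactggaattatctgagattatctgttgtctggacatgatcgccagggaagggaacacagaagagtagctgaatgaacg

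The motif began at -148 from the start in Astn1 and at -34 in Plce1, and neither form of it was in the Foxd3 window. Windows were found for 22 of the 29 members, 27 windows in all. One of the motif's forms was in 5 of the 27 windows (18.5%), those of Astn1, Cnp, Nrxn3, Plce1 and Sox2, and in 9394 of all 32851 windows of that length (28.6%). A match is a run of letters and not a shown binding site.

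Across the members, RNA was lower in YFP+ for most of the list and close to level for a part of it. Of the 29, 28 passed the filter on low counts and Sox2 had no count in any library. The log2 fold change was below 0 in 27 of the 28, with a median of -1.87. In 19 of 28 the edgeR call was lower and in 0 higher, beside the 3.34% and 0.917% of all genes given above. With the block it was 23 lower and 0 higher, beside 7.85% and 3.65%. All YFP+ libraries lay below all YFP- libraries in 19 of 28, beside 5.86% of all genes. The members were chosen on this contrast, so nothing is read from these counts. In bulk RNA, fewer cells of a type and less RNA per cell cannot be told apart.

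**Figure D1:**
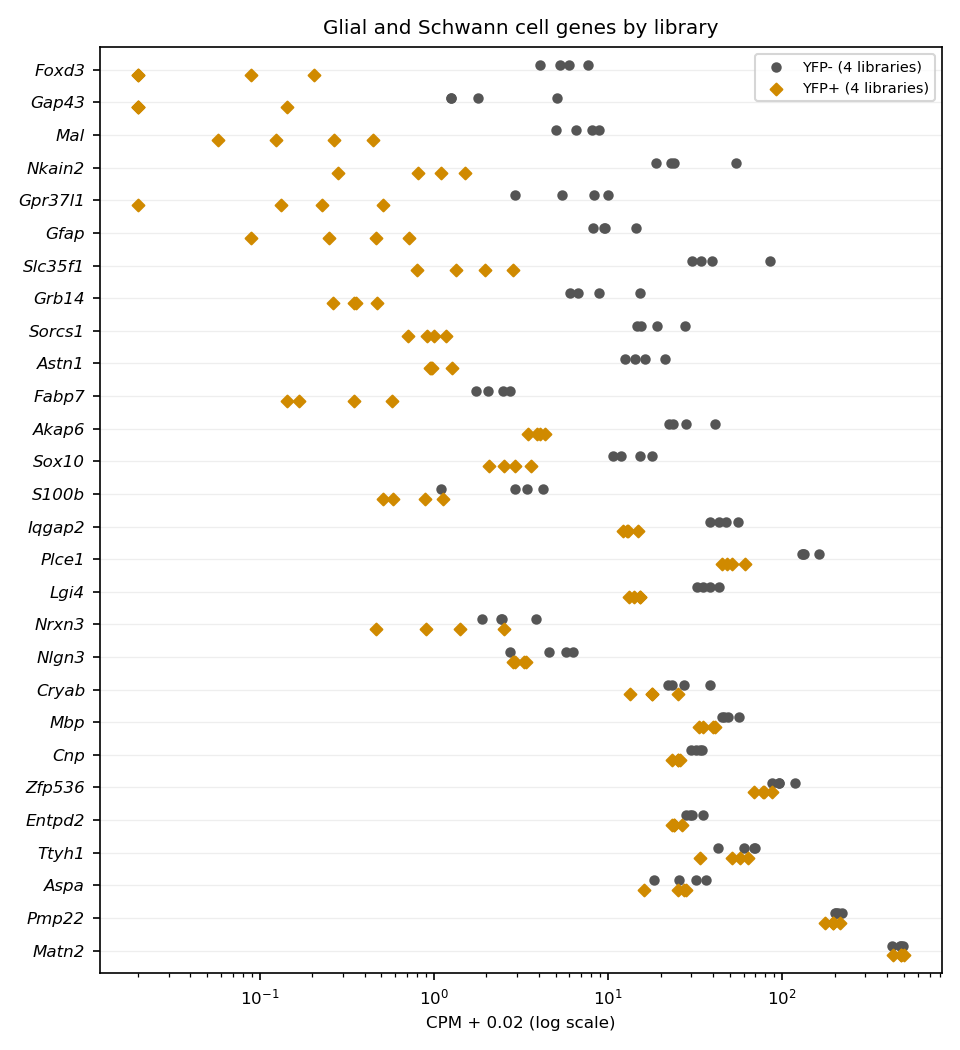
Level of each of the 28 tested members in the 4 YFP- libraries (grey circles) and 4 YFP+ libraries (orange diamonds), in CPM plus 0.02 on a log axis, ordered by the YFP+ level relative to YFP-. From Foxd3 down to Sox10 the fractions stand apart, while for Pmp22 and Matn2 at the foot they overlap.

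Among the transcription factors, Sox10, the neural crest and glial regulator, measured 15.2, 17.8, 10.7 and 11.9 CPM in YFP- replicates 1 to 4 and 2.05, 2.51, 3.57 and 2.91 CPM in YFP+ replicates 1 to 4. The fractions did not overlap. The log2 fold change was -2.33 (SE 0.22), and the YFP+ mean was 19.9% of the YFP- mean, with 13.5% to 33.5% over the 4 same-numbered pairs. Sox10 (ENSMUSG00000033006) lies at chr15:79154908-79165240, minus strand, on GRCm38.

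Foxd3, a forkhead factor of neural crest progenitors, was near 0 in YFP+. It measured 5.92, 7.62, 5.27 and 4.06 CPM in YFP- and had 5, 0, 0 and 2 counts in YFP+, or 0.186, 0, 0 and 0.0693 CPM. Its log2 fold change was -6.39 (SE 0.60), and was -7.64 without YFP+ replicate 1, which held 5 of the 7 YFP+ counts. Foxd3 (ENSMUSG00000067261) lies at chr4:99656299-99658622, plus strand.

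Zfp536, a zinc finger protein of the nervous system, was kept in YFP+. It measured 86.7, 118, 96.2 and 95.9 CPM in YFP- and 77.7, 68.3, 78.5 and 86.8 CPM in YFP+. The fractions overlapped slightly, and the log2 fold change was -0.35 (SE 0.10). YFP+ was lower in each of the 4 pairs.

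Sox2, a factor of neural progenitors and glia, had 0 counts in all 8 libraries. A count of 0 allows up to 3 counts, which is 0.0983 to 0.133 CPM per library and 0.0144 CPM over all 8. Sox2 (ENSMUSG00000074637) lies at chr3:34650405-34652461, plus strand, within the span of the noncoding gene Sox2ot on the same strand (34104270 to 34682619), with no exon shared in the annotation. Sox2ot, looked up after the zeros were seen, had 49, 178, 54 and 71 counts in YFP- and 14, 50, 16 and 15 in YFP+. How the counting treated reads in this span is not given in the sources used here, and its part in the zeros was not tested.

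The classical glial markers stood well below their YFP- levels in YFP+. Gfap, the intermediate filament protein of glia, measured 9.55, 14.4, 8.204 and 9.43 CPM in YFP- and 0.447, 0.699, 0.229 and 0.0693 CPM in YFP+, a log2 fold change of -4.87 (SE 0.43). Fabp7, a fatty acid binding protein of glial precursors, measured 2.03, 2.47, 1.73 and 2.72 CPM and 0.149, 0.123, 0.328 and 0.554 CPM in the same order, a log2 fold change of -2.92 (SE 0.54). Neither gene's fractions overlapped, and Gfap kept 3.47% and Fabp7 12.9% of the YFP- mean.

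S100b, a calcium-binding protein used as a glial marker, was low in all libraries. It measured 3.403, 4.23, 1.08 and 2.901 CPM in YFP- and 0.559, 0.864, 0.491 and 1.11 CPM in YFP+, a log2 fold change of -1.94 (SE 0.46). The lowest YFP- library, replicate 3, lay just under the highest YFP+ library, so the fractions overlapped. YFP+ was lower in each of the 4 pairs.

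Cryab, a small heat shock protein found in glia and muscle, differed less. It measured 27.2, 38.3, 23.2 and 21.9 CPM in YFP- and 17.9, 25.1, 17.9 and 13.3 CPM in YFP+, a log2 fold change of -0.58 (SE 0.21). The fractions overlapped, although YFP+ was lower in each of the 4 pairs. The log2 fold change was -0.37 without YFP- replicate 2 and -0.75 without YFP+ replicate 2, and 17.0% of the exonic length is shared with Hspb2 on the opposite strand.

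Gap43, a growth cone protein that Schwann cells also make, was almost absent from YFP+. It had 28, 121, 41 and 34 counts in YFP- and 0, 3, 0 and 0 in YFP+. With 224 counts against 3, the YFP- level was 84.89-fold higher, with a 95% exact interval of 28.68 to 414.7 that covers counting error only. Its highest YFP- library was replicate 2, without which the ratio was 51.74, with an interval of 17.22 to 255. All 3 YFP+ counts lay in YFP+ replicate 2. Without that library, at a limit of 3 counts over the fraction, the YFP+ level was at least 66.22-fold lower.

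Of the myelin genes, only Mal was near 0 in YFP+, among the 5 on the list. Mal, a proteolipid of compact myelin and of membrane sorting, measured 6.497, 8.08, 8.81 and 5.005 CPM in YFP- and 0.0372, 0.247, 0.426 and 0.104 CPM in YFP+. Its log2 fold change was -5.07 (SE 0.46), and the YFP+ mean was 2.87% of the YFP- mean. Without YFP+ replicate 3 the fold change was -5.76. Mal (ENSMUSG00000027375) lies at chr2:127633226-127656695, minus strand.

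The other myelin genes kept most of their level. Mbp, myelin basic protein, measured 56.6, 45.2, 46.3 and 49.03 CPM in YFP- and 41.3, 35.1, 33.3 and 39.9 CPM in YFP+, a log2 fold change of -0.40 (SE 0.10). Its locus also makes Golli transcripts, which are known in cells outside glia and which these counts do not separate. Cnp, a cyclic nucleotide phosphodiesterase of myelinating cells, measured 29.7, 32.03, 34.7 and 33.6 CPM and 25.3, 25.1, 25.9 and 23.1 CPM, a log2 fold change of -0.39 (SE 0.10). In both genes the fractions did not overlap, and the gap was small beside the level.

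Pmp22, a membrane protein of peripheral myelin that many other cells make, overlapped between the fractions. It measured 219, 199.7, 204 and 208 CPM in YFP- and 214, 195, 176 and 196 CPM in YFP+, a log2 fold change of -0.09 (SE 0.08). YFP+ was lower in each of the 4 pairs, at 85.93% to 97.65% of YFP-. Aspa, the enzyme that splits N-acetylaspartate, measured 18.2, 31.8, 36.7 and 25.6 CPM and 16.1, 27.2, 25.2 and 27.9 CPM, a log2 fold change of -0.22 (SE 0.23). It was lower in YFP+ in 3 of the 4 pairs.

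The secreted members split. Lgi4, a Schwann cell ligand needed for myelination, measured 38.4, 43.2, 35.1 and 32.4 CPM in YFP- and 15.2, 14.1, 15.2 and 13.2 CPM in YFP+, with no overlap and a log2 fold change of -1.37 (SE 0.12). Exons of Lgi4 share 44.9% of their length with Fxyd3 on the opposite strand, and the strand setting of the counting is not given in the sources used here. Matn2, a matrilin of the extracellular matrix, measured 479, 428, 477 and 492 CPM and 498, 429, 481 and 477 CPM.

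Matn2 was level between the fractions, with a log2 fold change of 0.01 (SE 0.08). It was lower in YFP+ in 1 of the 4 pairs, and it was the one member tested whose fold change was not below 0. The sign turned when YFP- replicate 2, YFP+ replicate 1 or YFP+ replicate 3 was left out, or under a filter of 1 CPM in 4 libraries, so no direction could be given.

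Among surface proteins, 5 of the 9 were low in YFP+ throughout. Nkain2, which interacts with the sodium pump, measured 18.8, 54.1, 23.8 and 22.9 CPM in YFP- and 0.261, 1.48, 0.786 and 1.07 CPM in YFP+, a log2 fold change of -5.06 (SE 0.55). Slc35f1, a solute carrier family member of neural tissue, measured 33.9, 85.01, 39.4 and 30.3 CPM and 0.782, 1.32, 2.82 and 1.94 CPM, a log2 fold change of -4.76 (SE 0.53). Both were highest in YFP- replicate 2, by more than the spread of the other 3 libraries.

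Astn1, a neuronal adhesion protein, measured 12.6, 21.2, 14.3 and 16.2 CPM in YFP- and 0.931, 0.946, 0.9499 and 1.25 CPM in YFP+, a log2 fold change of -3.97 (SE 0.22). Sorcs1, a sorting receptor of neurons, measured 14.7, 27.8, 15.5 and 19.1 CPM and 0.894, 1.15, 0.983 and 0.693 CPM, a log2 fold change of -4.37 (SE 0.25). Gpr37l1, an orphan receptor of glia, measured 5.44, 9.97, 8.29 and 2.901 CPM and 0.112, 0, 0.491 and 0.208 CPM, a log2 fold change of -4.94 (SE 0.66). In these genes too the fractions stood clear of each other.

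The remaining surface members kept more of their RNA in YFP+. Nrxn3, a neurexin of synapses, measured 2.43, 3.85, 1.86 and 2.39 CPM in YFP- and 0.447, 2.51, 0.884 and 1.39 CPM in YFP+, a log2 fold change of -1.02 (SE 0.47). Nlgn3, a neuroligin that binds neurexins and is made by glia as well as neurons, measured 6.23, 5.695, 4.58 and 2.72 CPM and 2.91, 3.25, 3.34 and 2.81 CPM, a log2 fold change of -0.64 (SE 0.28). Both overlapped between the fractions. Nrxn3 was lower in YFP+ in each of the 4 pairs and Nlgn3 in 3 of them. In Nlgn3, 41.2% of the exonic length is shared with Gm21986 on the same strand.

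Entpd2, an ectonucleotidase that marks enteric glia, measured 35.004, 27.9, 30.2 and 29.5 CPM in YFP- and 23.99, 23.2, 26.4 and 23.8 CPM in YFP+, a log2 fold change of -0.33 (SE 0.11). Its fractions did not overlap, and 28.8% of its exonic length is shared with Npdc1 on the same strand. Ttyh1, a membrane protein of the tweety family made in neural cells, measured 69.4, 42.96, 59.97 and 69.2 CPM and 63.8, 33.8, 56.8 and 51.5 CPM, a log2 fold change of -0.23 (SE 0.21) with overlap. Its YFP+ level was lower in each of the 4 pairs, at 74.5% to 94.8% of YFP-.

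All 4 scaffold and signalling members were lower in YFP+ without overlap, beside 5.86% of all genes tested. The members were chosen on this contrast, so nothing is read from that count. Plce1, a phospholipase C regulated by Ras family proteins, measured 134, 162, 129 and 131 CPM in YFP- and 51.5, 60.9, 45.3 and 48.3 CPM in YFP+, a log2 fold change of -1.43 (SE 0.10). Iqgap2, a scaffold of the cytoskeleton, measured 55.7, 43.3, 38.6 and 47.4 CPM and 12.9, 13.04, 12.2 and 14.8 CPM, a log2 fold change of -1.81 (SE 0.12). The 4 pairs of Plce1 gave a YFP+ level of 35.1% to 38.4% of YFP-, a narrower range than Sox10 had.

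Akap6, an anchor for protein kinase A, measured 23.4, 41.3, 22.5 and 28.1 CPM in YFP- and 4.02, 4.32, 3.44 and 3.88 CPM in YFP+, a log2 fold change of -2.88 (SE 0.19). Grb14, an adaptor of receptor tyrosine kinases, measured 6.67, 15.2, 8.89 and 5.98 CPM and 0.335, 0.452, 0.328 and 0.243 CPM, a log2 fold change of -4.75 (SE 0.37). Grb14 kept 3.69% of its YFP- mean and Akap6 13.6%.

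The level left in YFP+, as a percent of the YFP- mean, ran from 1.12% for Foxd3 to 100.6% for Matn2 over the 28 members, with a median of 27.3%. Limits of 10% and 50%, set after the values were seen, divided the list. Under 10% of the YFP- mean lay 10 members with a median of 3.26%, from Foxd3 to Astn1 at 6.33%. Their values in single pairs ran from 0% to 7.68%. The 8 members between the limits, Sox10 among them, ran from 12.9% for Fabp7 to 49.6% for Nrxn3. At 50% or more lay 10 members, from Nlgn3 at 63.99% upward, including 4 of the 5 myelin genes.

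**Figure D2:**
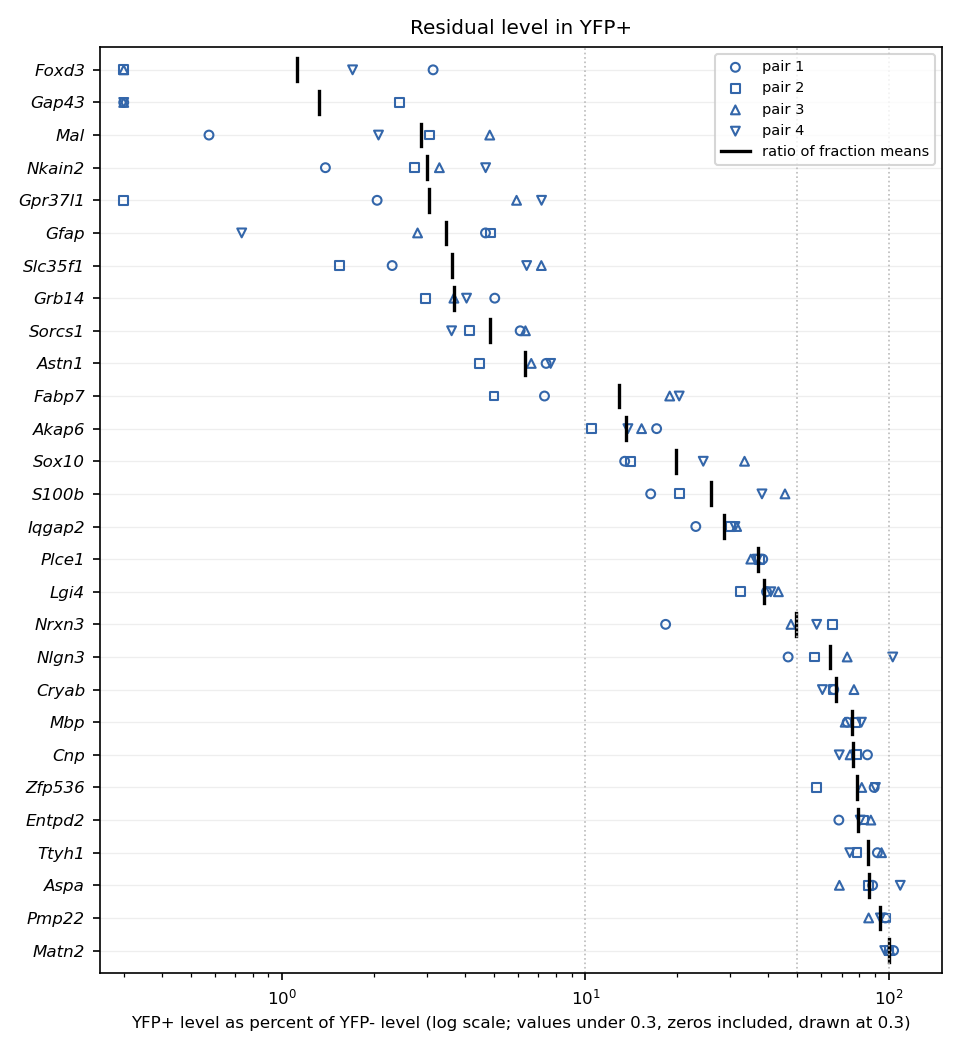
YFP+ level of each of the 28 tested members as a percent of its YFP- level on a log axis, for the 4 same-numbered pairs (open symbols) and the ratio of the fraction means (bar). Values under 0.3%, zeros included, are drawn at 0.3%, and dotted lines mark 10%, 50% and 100%.

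Set per kilobase of exon, so that genes can be compared, the members of the 3 ranges overlapped in YFP- level only in part. Those under 10% ran from 1.28 CPM per kb (Grb14) to 9.54 CPM per kb (Slc35f1). All of them but Slc35f1 and Nkain2 (6.35) lay at 2.93 CPM per kb (Gpr37l1) or below. Members of the middle range ran from 0.209 to 8.68 CPM per kb. In the highest range Nlgn3 was at 0.518 CPM per kb, and all others were at 4.71 CPM per kb (Aspa) or above. Whether the share left in YFP+ follows the YFP- level was not tested. Pmp22, at 88.3 ± 3.51 CPM per kb in YFP- (SD, n = 4), and Matn2, at 74.9 ± 4.47, led the list by a wide margin. Cryab at 18.7 ± 5.02 and Entpd2 at 14.4 ± 1.43 followed, and differed by less than their spread. In YFP+ Pmp22 and Matn2 still led, at 82.8 ± 6.63 and 75.3 ± 4.698 CPM per kb, while Sox10 went from 4.56 ± 1.07 to 0.904 ± 0.211 CPM per kb.

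Within YFP-, the members were not spread evenly over the libraries. Replicate 2 had the highest value of the 4 for 17 of 28 members (60.7%), against 28.5% of all genes tested. Among the 10 members under 10% it was highest for 9, all but Mal, and replicate 4 was lowest for 6. These counts were also 17 of 28 under relative log expression and upper-quartile scaling. The members were chosen on the contrast of the fractions, and YFP- replicate 2 is part of the YFP- mean. That mean also enters the 10% limit, so the order of libraries was not independent of the choice. The members may also vary together, so these counts are a description and no test. That the libraries numbered 2 stood apart was known from earlier results.

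The size of this difference varied by gene. Against the mean of the other 3 YFP- libraries, replicate 2 ran from 1.19-fold (Mal) to 3.58-fold (Gap43) over the 10 members under 10%, with a median of 1.74-fold. Over all 28 it ran from 0.649-fold (Ttyh1) upward, with a median of 1.34-fold, and was above 1 in 21. In YFP+ the highest value fell in replicates 1 to 4 for 5, 9, 8 and 6 of the 28 members. Among the 10 members under 10%, YFP+ replicate 2 was highest for 5, against 29.1% of all genes tested.

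**Figure D3:**
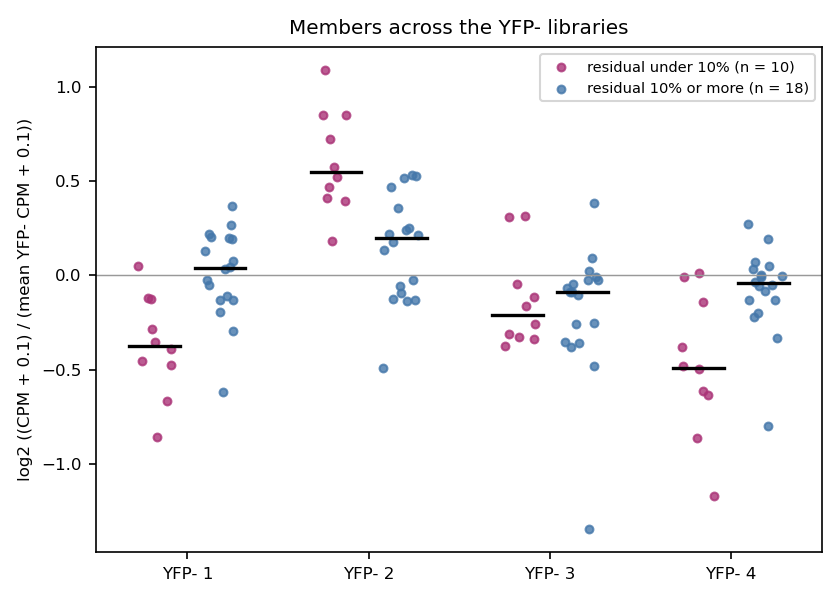
Level of each member in a YFP- library relative to its mean over the 4 YFP- libraries, as log2 of CPM plus 0.1, for 10 members with under 10% of their level left in YFP+ (red) and the other 18 (blue), with bars at the medians. The red points sit highest in replicate 2, where 9 of 10 have their highest value.

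Summed over the 10 members under 10%, YFP- replicates 1 to 4 held 115, 248, 134 and 117 CPM and YFP+ replicates 1 to 4 held 3.99, 6.42, 7.01 and 5.65 CPM. Slc35f1 and Nkain2 made the largest parts of each YFP- sum, so the sums follow these genes most. They measured 85.0 and 54.1 CPM in YFP- replicate 2, with YFP- means of 47.2 and 29.9 CPM. The YFP+ sum was 2.58% to 5.22% of the YFP- sum over the 4 pairs and 3.75% from the means. Without both libraries numbered 2, the median log2 fold change of these 10 members was -4.73, against -4.91 with all libraries, and the median over all 28 was -1.79.

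Genes of the same biology that are not on the list were counted in 3 further lists, 43 of them tested. In the fit with edgeR over all genes, 20 of the 43 fell in YFP+ and 1 rose, and with the block 25 fell and 2 rose, beside the background shares given above. Their median log2 fold change was -0.70, against 0.0032 over all genes tested. The lists were written with earlier results of these data known and are not independent evidence of a direction.

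Of 15 tested regulators of neural crest and Schwann cells, 5 fell and 1 rose, with a median log2 fold change of -0.40. Those that fell were Erbb3, Rxrg, Sox8, Pou3f1 and Notch1, and with the block Egr2 also fell and Ednrb rose beside Nrg1. Erbb3, the neuregulin receptor of Schwann cells, measured 19.005, 26.3, 18.05 and 14.4 CPM in YFP- and 1.899, 1.23, 2.16 and 1.11 CPM in YFP+, a log2 fold change of -3.59 (SE 0.25) and an edgeR adjusted p of 4.13e-07. Rxrg, a retinoid receptor, had 165 counts in YFP- and 0 in YFP+, at least 62.53-fold lower at a limit of 3 counts over the fraction (edgeR adjusted p of 0.000716). YFP- replicate 2 held 87 of the 165 counts, and without it the limit was 39.18-fold. Nrg1, which encodes the ligand of Erbb3, rose from 25.3, 21.7, 21.2 and 25.6 CPM to 42.9, 30.4, 43.2 and 51.4 CPM, a log2 fold change of 0.84 (SE 0.14) and an edgeR adjusted p of 0.00183. The receptor and the ligand thus moved in opposite directions.

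Sox8, a relative of Sox10, fell by 0.97 on the log2 scale (SE 0.23, edgeR adjusted p of 0.0197). Pou3f1, a factor of Schwann cells before myelination, fell by 1.35 (SE 0.33, edgeR adjusted p of 0.0268). With the block and all libraries, the edgeR adjusted p was 0.000427 for Sox8 and 0.00487 for Pou3f1. In fits with no block, both missed the threshold without YFP- replicate 1, YFP- replicate 4 or YFP+ replicate 3, with adjusted p from edgeR of 0.0588 to 0.0887. Sox8 also missed it without YFP+ replicate 4 (0.0632), and Pou3f1 without YFP- replicate 3 (0.07) or YFP+ replicate 2 (0.0608). The count of regulators that fell was 2 to 6 when each library was left out in turn, and it was 2 without YFP- replicate 1, YFP- replicate 4 or YFP+ replicate 3 and 3 without YFP- replicate 3, YFP+ replicate 2 or YFP+ replicate 4.

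Of 16 other genes of myelin and Schwann structure, 7 were tested and 2 fell, with a median log2 fold change of -0.59. Gjc3, a connexin of glia, measured 4.07, 5.61, 1.77 and 2.21 CPM in YFP- and 0.149, 0.123, 0.459 and 0.347 CPM in YFP+, a log2 fold change of -3.62 (SE 0.53) and an edgeR adjusted p of 0.000656. Its fractions did not overlap. Pmp2, a lipid-binding protein of peripheral myelin, had no count in any library and shares 86.9% of its exonic length with Gm37389.

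Of other genes of enteric and satellite glia, 13 of 21 tested fell (17 with the block), with 0 higher and a median log2 fold change of -1.995. Kcna1, a potassium channel of axons and glia, measured 25.1, 38.2, 24.5 and 21.04 CPM in YFP- and 0.559, 0.781, 0.557 and 0.589 CPM in YFP+, a log2 fold change of -5.45 (SE 0.23) and an edgeR adjusted p of 1.7e-09. Cdh19, a cadherin of Schwann lineage cells, measured 41.99, 61.1, 36.3 and 47.7 CPM and 2.16, 1.36, 1.28 and 2.04 CPM, a log2 fold change of -4.77 (SE 0.21) and an edgeR adjusted p of 1.33e-08. Chl1, an adhesion protein, and Sostdc1, a secreted antagonist of BMP and Wnt, had log2 fold changes of -3.04 (SE 0.18) and -5.50 (SE 0.50), with edgeR adjusted p of 6.94e-07 and 6.7e-06. All 4 of these genes, taken for their smallest p, had no overlap between the fractions, beside 5.86% of all genes tested that lay lower without overlap.

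**Figure D4:**
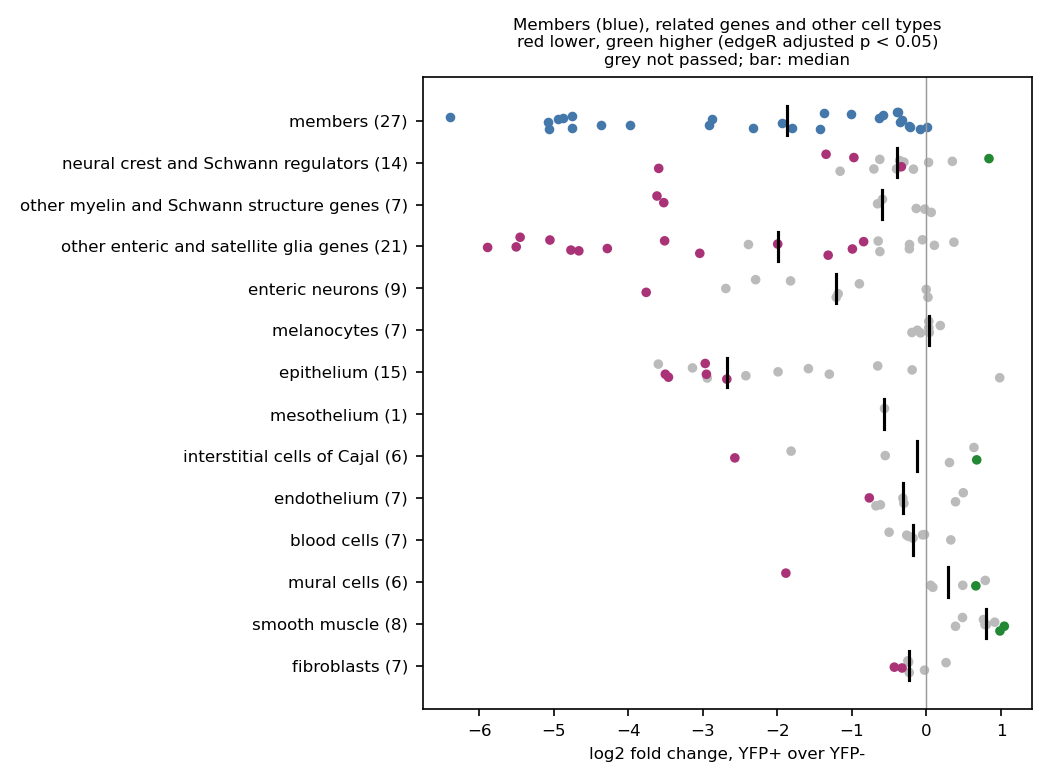
Log2 fold change of YFP+ over YFP- for 27 members (blue) and for related genes and markers of other cells, coloured by the edgeR call. Gap43 and Rxrg, with 3 or fewer YFP+ counts, are left out of the points but kept in the medians (bars), which are -1.87 for the members and -1.995 for other enteric and satellite glia genes.

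Markers of other cell types that the sort could hold were counted beside the members. Of 73 tested on 10 lists, 11 fell and 4 rose, beside 3.34% and 0.917% of all genes tested. With the block 18 fell and 12 rose, beside 7.85% and 3.65%. The same shares stand beside the counts of each list below. The 11 that fell were 7 without YFP+ replicate 1 or 2 and 3 without YFP+ replicate 3, and the 4 that rose were 8 without YFP- replicate 1 and 2 without YFP- replicate 4 or YFP+ replicate 3. Those of epithelium fell in 5 of 15 tested, which were Epcam, Krt19, Krt20, Cdh1 and Pigr. With the block 6 fell, with Krt18 and Fabp2 added and Epcam missing the threshold (edgeR adjusted p of 0.0539). Without YFP+ replicate 1 or 2 there were 3, and without YFP+ replicate 3 there was 1. Pigr, the receptor that carries IgA, had a log2 fold change of -2.97 (SE 0.45) and an edgeR adjusted p of 0.00441. The 15 summed to 51.7 to 104 CPM in YFP- and 25.1 to 29.5 CPM in YFP+. Their part in the members' differences was not tested.

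Markers of enteric neurons summed to 11.5, 34.6, 13.4 and 10.7 CPM in YFP- replicates 1 to 4 and to 8.21 to 12.995 CPM in YFP+. Of 9 tested on that list of 22, 1 fell in edgeR and 0 rose. That call was lost without YFP- replicate 2 or 4 or YFP+ replicate 2, 3 or 4, each time leaving 0, and with the block 2 fell. Tubb3 and Slc18a3 had 0 counts in every library, and the most abundant marker, Nos1, measured 4.55, 10.8, 3.84 and 3.34 CPM in YFP- and 5.36, 6.46, 5.04 and 5.58 CPM in YFP+ (edgeR adjusted p of 0.998). The sum was highest in YFP- replicate 2, the library that was also highest for most members, and its part in their order was not tested.

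Melanocytes, another neural crest cell type, also express Sox10. Their 7 markers summed to 195, 96.6, 2.55 and 68.4 CPM in YFP- replicates 1 to 4 and to 77.7, 91.6, 91.4 and 104 CPM in YFP+, and 0 of 7 passed in either direction (edgeR, 0 with the block). In YFP- replicate 3, where Tyrp1 had 0 counts and Dct had 3, Sox10 stood at 10.7 CPM. In YFP+, where the melanocyte sum was at least 77.7 CPM in every library, Sox10 stood at 2.05, 2.51, 3.57 and 2.91 CPM. Whether melanocytes carry the Sox10 RNA left in YFP+ was not tested.

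**Figure D5:**
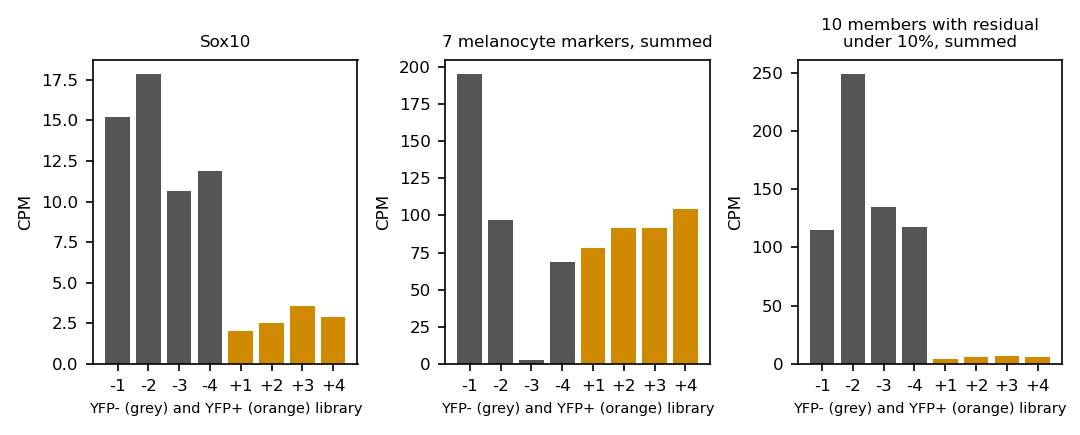
CPM per library (grey YFP-, orange YFP+, replicates 1 to 4) of Sox10, of 7 melanocyte markers summed and of the 10 members under 10% summed, on separate axes from 0. YFP- replicate 3 had a melanocyte sum of 2.55 CPM beside 10.7 CPM of Sox10.

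Markers of smooth muscle rose in 2 of 8 tested, Lmod1 and Myocd, and with the block in 7. Acta2, its actin, differed by 0.79 (SE 0.41) on the log2 scale and did not pass without the block (adjusted p of 0.453 in edgeR), while with the block its edgeR adjusted p was 1.64e-09. Fibroblast markers fell in 2 of 7, Dcn and Lum, and with the block 5 fell and 1, Col6a1, rose. Col1a1, a collagen chain, differed by -0.25 (SE 0.10) on the log2 scale and did not pass without the block (adjusted p of 0.192 in edgeR), while with the block its edgeR adjusted p was 0.00111. Without YFP- replicate 4 or YFP+ replicate 3, 1 smooth muscle marker rose. For fibroblasts 1 fell without YFP- replicate 1, 3 or 4 or YFP+ replicate 1, 2 or 3, and 1 rose without YFP- replicate 1.

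Of 6 markers of interstitial cells of Cajal, Prkcq fell and Gja1, a connexin, rose with a log2 fold change of 0.67 (SE 0.12) and an edgeR adjusted p of 0.00413. The call of Prkcq was lost without YFP- replicate 2 or YFP+ replicate 1, 3 or 4, and 2 markers rose without YFP- replicate 1 or YFP+ replicate 1 or 4 and 3 with the block. Of 6 mural markers Mcam fell and Cspg4 rose, the latter call being lost without YFP- replicate 2, 3 or 4 or YFP+ replicate 1, 2 or 3, while 2 rose without YFP- replicate 1. Of 7 endothelial markers Tek fell, with 0 called without YFP+ replicate 3 2 without YFP- replicate 2 and 3 with the block. For blood cells 0 of 7 and for mesothelium 0 of 1 passed in edgeR, with or without the block. The summed blood markers spanned 81.3 to 288 CPM (YFP-) and 44.8 to 334 CPM (YFP+).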

How the data were processed

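RNA of 8 libraries, 4 per fraction, was analysed from the authors' deposited table of raw counts per gene, which are whole numbers and not normalised. The tools named are STAR 2.7.3a, featureCounts 2.0.1, cutadapt 3.4 and DESeq2, and GRCm38 is the build, per the submitters' processing notes. Which annotation was used, and whether counting used strand, is not given in the sources used here. Not used were the 8 normalised columns and the authors' fold changes. Library totals ran from 23272858 to 29829232 counts, and every pair of libraries within a fraction differed by more than sampling noise.

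In R 4.3.3, edgeR 4.0.16 was fitted to all genes passing filterByExpr (16354 of 53801, of which 23010 had no count), with TMM scaling, the robust quasi-likelihood F test and Benjamini-Hochberg adjustment at 0.05. CPM use TMM-scaled totals. The SE is the absolute log2 fold change divided by the square root of F. The fit without the block was also run on simulated counts with planted changes and no pairing of libraries. That run does not show how the fit handles paired libraries or changes as large as the members' largest. The members and gene lists were chosen with earlier results of these data known. All 29 members are described. Of other genes, the text names up to 4 called genes per direction with the smallest p from each related list, and from each list of other cells takes the 2 most abundant. Pdgfra, Pmp2, Tubb3, Slc18a3, Sox2ot, Notch1, Ednrb, Epcam, Krt19, Krt20, Krt18, Fabp2, Cdh1, Lmod1, Myocd, Dcn, Lum, Col6a1, Egr2, Prkcq and Mcam were named outside this rule, after their values were seen. Some genes that the rule took are left out of the text.

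Same-numbered libraries were checked for pairing. Over 5200 genes, deviations from the fraction means correlated across genes at 0.60, 0.64, 0.38 and 0.57 for equal numbers. For unequal numbers they correlated at -0.42 to 0.05. Equal numbers were therefore treated as pairs in the pair ratios and in the fits with the block. The main edgeR fit had no block, so its SE, p-values and calls leave the pairing out. No label says what same-numbered libraries share.

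Coordinates and exonic lengths are from GENCODE mouse release 21 (GRCm38), and start regions from RefSeq (GRCm38.p6). Of the members, 10 share exonic sequence with another gene, 4 of them over 10% of their length. Alternatives were 2 other scalings, 2 other filters, DESeq2 1.42.0, limma-voom (limma 3.58.1), the replicate block, leaving out mitochondrial and ribosomal RNA genes, and leaving out each library or both numbered 2. DESeq2 with the block, and the count ratios of Gap43 and Rxrg without each library, were added after seeing the data.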

Additional observations from a re-analysis of the deposited data

Results flagged for a closer look

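Of 143 sets of 4 values examined, 11 had 1 library far from the other 3 by Dixon's ratio, where chance flags about 1 in 20, or 7.15. That number takes the sets as independent, which they are not, so it is only a rough guide.

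In 8 of these sets the library was YFP- replicate 2, and it was high. They were Gap43 at 5.07 CPM, Nkain2 at 54.1 CPM, Slc35f1 at 85.0 CPM, Plce1 at 162 CPM, Rxrg at 3.64 CPM and Nos1 at 10.8 CPM. The summed neuron markers were at 34.6 CPM and the sum of the 10 members that kept under 10% of their level in YFP+ at 248 CPM in that library. The neuron sum holds Nos1, and the sum of members holds Gap43, Nkain2 and Slc35f1, so these sets are not separate.

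In YFP+, replicate 2 was high for Gap43 at 0.123 CPM, which is 3 counts, and for Kcna1 at 0.781 CPM. YFP+ replicate 4 was high for Astn1 at 1.25 CPM.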

How the results depend on the processing

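The members called lower numbered 16 to 21 without the block, and with it 23 in edgeR and 21 in DESeq2, and 16 of the 19 were called under every alternative. S100b, Mbp and Cnp lost the call under at least 1, and Zfp536, Cryab, Entpd2 and Ttyh1 were added by the edgeR fit with the block. The median level left in YFP+ was 24.3% to 29.33% when a library was left out and 29.56% from same-numbered pairs (27.29% from the means). No called result changed sign, and Matn2, at a log2 fold change near 0, did under 4 alternatives.

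With the replicate block, which pairs same-numbered libraries, 1283 of all genes were lower and 597 higher, 2 regulators were higher, and 18 markers of other cells were lower and 12 higher. DESeq2 with the block gave 1218, 511, 2, 21 and 11. Without a block, DESeq2 gave 269 genes higher, 2 regulators higher, and 19 markers lower and 7 higher. No filter gave 934 genes lower and 309 higher, 2 regulators higher, and 17 markers lower and 8 higher. Limma-voom gave 7 markers lower. Without both libraries numbered 2, 3 regulators and 6 markers were lower.

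Leaving out 1 library gave 339 (without YFP+ replicate 3) to 521 genes lower and 88 (without YFP+ replicate 3) to 156 higher, with 96 without YFP- replicate 3. It gave 2 to 6 regulators lower and 1 to 2 higher, and 3 to 10 markers lower and 2 to 8 higher. The cause of these shifts was not tested. Depth limits most the members with fewer than 50 YFP+ counts in all, which were Sox2 (0), Gap43 (3), Foxd3 (7), Mal (23), Gpr37l1 (24), Fabp7 (33), Grb14 (37) and Gfap (38).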
